A study of Homo sapiens with 12 samples.

Results

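The 10 genes described here, ATF4, DDIT3, TRIB3, ASNS, CHAC1, SESN2, DDIT4, HSPA5, XBP1 and HERPUD1, are those that cells are known to switch on when amino acids run short or when unfolded proteins gather in the endoplasmic reticulum (ER). They were found by symbol in a table of gene loci, each of the 10 on 1 locus of 31585, and all 10 were among the 15055 loci that passed the filter on low values. The cells were A375, a human melanoma line, stably transduced with a retroviral vector (MSCV-IRES-Hygro) and selected with hygromycin. The vector was empty in the Control group and carried a mutant of human YAP, the coactivator that is held in check by the Hippo kinases, in the other groups. YAP-S127A lacks the serine whose phosphorylation by the Hippo kinases keeps YAP in the cytoplasm. YAP-S127A,S94A carries in addition the S94A mutation and cannot bind TEADs, the transcription factors that bring YAP to DNA. YAP-2SA carries S127A and S381A, and the second of these removes the serine that marks YAP for degradation. The sample titles define YAP-2SA in this way, whereas another field of the same labels also lists S94A for it, and the titles were followed here. Each group had 3 libraries, which the study describes as independent RNA samples. Separate transductions are not described, so the spread between the libraries may not include the spread between transductions. The series description puts lysis 24 h after plating, and the methods of the study give a longer culture.

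The integrated stress response starts when one of 4 kinases phosphorylates the initiation factor eIF2. General translation then falls while the ATF4 message is translated more, and ATF4 protein turns on genes of amino acid synthesis, amino acid transport and tRNA charging. In the ER the kinase among them is PERK, which works beside 2 other sensors. IRE1 splices the XBP1 message into the form that encodes an active factor, and ATF6 is cut free to enter the nucleus. Spliced XBP1 and ATF6 raise chaperones and ER-associated degradation, with HSPA5 (BiP) as the classical readout. ATF4 and XBP1 are therefore controlled in large part after transcription, and the values below are mRNA levels that say nothing of translation, of splicing or of protein.

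The response is read by short DNA elements, and 5 of the 10 genes carry one in the 250 bases before a RefSeq transcription start. These 5 sequences are shown because they hold the sites that the ATF4 arm and the ER arm are known to use. They are RefSeq promoter sequences, printed 5′ to 3′ on the strand of the gene, and were placed on GRCh37 by exact match. Capitals mark the matched letters. The searched letters, on both strands, were TGATGNAA for the core of the C/EBP-ATF response element (CARE), CCAAT, any 9 bases and CCACG for the ER stress response element (ERSE), ATTGG, any 1 base and CCACG for ERSE-II, whose ATTGG is the CCAAT of the ERSE read on the other strand, and GGAATG for the TEAD site. No match of one motif overlapped a match of another in these windows.
ASNS, chr7:97501721-97501970, minus strand, CARE core at bases -68 to -61 from the start: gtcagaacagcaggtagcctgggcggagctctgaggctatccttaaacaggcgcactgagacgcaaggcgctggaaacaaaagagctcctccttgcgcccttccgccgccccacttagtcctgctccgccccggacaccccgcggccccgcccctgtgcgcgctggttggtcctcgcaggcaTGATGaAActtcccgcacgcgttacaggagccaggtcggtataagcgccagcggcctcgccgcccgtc
CHAC1, chr15:41245419-41245668, plus strand, CARE core on the opposite strand at -209 to -202: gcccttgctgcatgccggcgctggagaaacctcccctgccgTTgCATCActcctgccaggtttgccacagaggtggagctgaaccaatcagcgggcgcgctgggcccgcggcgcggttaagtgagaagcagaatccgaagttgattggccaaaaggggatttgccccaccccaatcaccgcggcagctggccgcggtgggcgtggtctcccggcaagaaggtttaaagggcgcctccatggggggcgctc
HERPUD1, chr16:56965804-56966053, plus strand, CARE core on the opposite strand at -176 to -169 and ERSE-II at -117 to -107: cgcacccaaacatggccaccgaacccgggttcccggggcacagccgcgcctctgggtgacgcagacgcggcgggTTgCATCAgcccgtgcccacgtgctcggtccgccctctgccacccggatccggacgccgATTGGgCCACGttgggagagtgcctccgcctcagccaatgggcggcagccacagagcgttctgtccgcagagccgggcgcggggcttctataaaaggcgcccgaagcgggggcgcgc
HSPA5, chr9:128003623-128003872, minus strand, ERSE at -66 to -48: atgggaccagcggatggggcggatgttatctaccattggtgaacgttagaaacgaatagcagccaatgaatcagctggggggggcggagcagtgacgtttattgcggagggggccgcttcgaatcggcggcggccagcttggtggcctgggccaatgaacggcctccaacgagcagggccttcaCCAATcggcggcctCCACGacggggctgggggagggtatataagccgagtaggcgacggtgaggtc
XBP1, chr22:29196558-29196807, minus strand, ERSE at -52 to -34: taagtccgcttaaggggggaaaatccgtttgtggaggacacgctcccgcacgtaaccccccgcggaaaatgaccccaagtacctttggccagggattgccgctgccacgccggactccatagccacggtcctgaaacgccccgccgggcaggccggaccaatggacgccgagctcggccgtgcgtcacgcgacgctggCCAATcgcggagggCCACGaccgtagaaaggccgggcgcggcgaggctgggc

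The CARE core was thus found in 3 of the 10 genes (ASNS, CHAC1 and HERPUD1), against 3.89% of the 27305 genes with a window and 3.14% of all 35116 windows. The ERSE was found in 2 of the 10 (HSPA5 and XBP1), against 0.0916% of genes and 0.0740% of windows. The ERSE-II was found in 1 of the 10 (HERPUD1), against 0.0659% of genes and 0.0513% of windows. The windows of ATF4, DDIT3, TRIB3, SESN2 and DDIT4 held none of these letters, and the TEAD letters were in the window of none of the 10 genes, against 14.3% of genes and 11.9% of windows. A match is a description of the sequence and does not show binding in A375 cells.

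The labels were checked before the comparisons. YAP1 stood at 34.1 and 33.0 FPKM (fragments mapped to a locus, scaled to the transcript's length and to the library's total) in 2 Control libraries and at 130 to 187 in the 9 libraries with a YAP vector, but at 172 in the library labelled Control replicate 3. CTGF, CYR61 and ANKRD1, textbook YAP-TEAD targets, averaged 12.5, 16.9 and 0.744 FPKM in Control, 24.8, 39.0 and 4.0 for YAP-S127A, 11.2, 14.9 and 0.887 for YAP-S127A,S94A, and 57.9, 106 and 17.1 for YAP-2SA. In the library labelled Control replicate 3 they stood at 12.7, 19.7 and 0.335 FPKM. Control replicate 1 had 12.7, 15.3 and 0.638, and Control replicate 2 had 12.2, 15.6 and 1.26. The library labelled Control replicate 3 was kept in its group, it was the lowest of the 3 Control libraries for 7 of the 10 stress genes, and calls of the 10 genes, and list counts in YAP-2SA against Control, that change without it are given with both values. A melanocyte marker list summed to 281 to 345 FPKM per library in Control, 231 to 300 in YAP-S127A, 301 to 336 in YAP-S127A,S94A and 38.9 to 48.9 in YAP-2SA. Its defining pigment genes TYR and DCT were at or near 0 and PMEL and MLANA were at most 0.508 and 0.580 FPKM in every library, while SOX10 ran from 4.53 to 287. Markers of other cell types summed to 2.55 to 11.7 FPKM. Among them the keratinocyte marker KRT14 ran from 0.362 to 10.9 FPKM (median 6.88) and KRT5 reached 1.67, while PTPRC, CD3E and ALB were at or near 0. The markers moved with the YAP-2SA group, and their part in the results was not tested. In bulk RNA, fewer cells that express a gene and less RNA per cell cannot be told apart.

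In YAP-2SA cells ATF4 and 4 genes of its arm, DDIT3, TRIB3, ASNS and CHAC1, rose by 1.44- to 3.25-fold in mean FPKM over Control. HSPA5, the main ER chaperone, fell to 0.759 of its Control level, and DDIT4, an inhibitor of mTORC1 that ATF4 also induces, fell to 0.434. XBP1, HERPUD1 and SESN2 did not pass the test. Tests were limma on log2(FPKM + 1), with p-values adjusted over all 15055 loci by Benjamini-Hochberg, and a gene was called at an adjusted p under 0.05. By this rule 5 of the 10 genes were higher and 2 were lower. The background was high, since 22.9% of all tested loci were called higher in YAP-2SA than in Control and 19.5% were called lower. The median log2 fold change of the 10 genes was 0.41, beside 0.01 over all tested loci. With a ratio of mean FPKM over 2 as a further condition 2 genes were left, CHAC1 higher and DDIT4 lower, where 7.59% of loci were called higher and 7.86% lower.

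**Figure D1:**
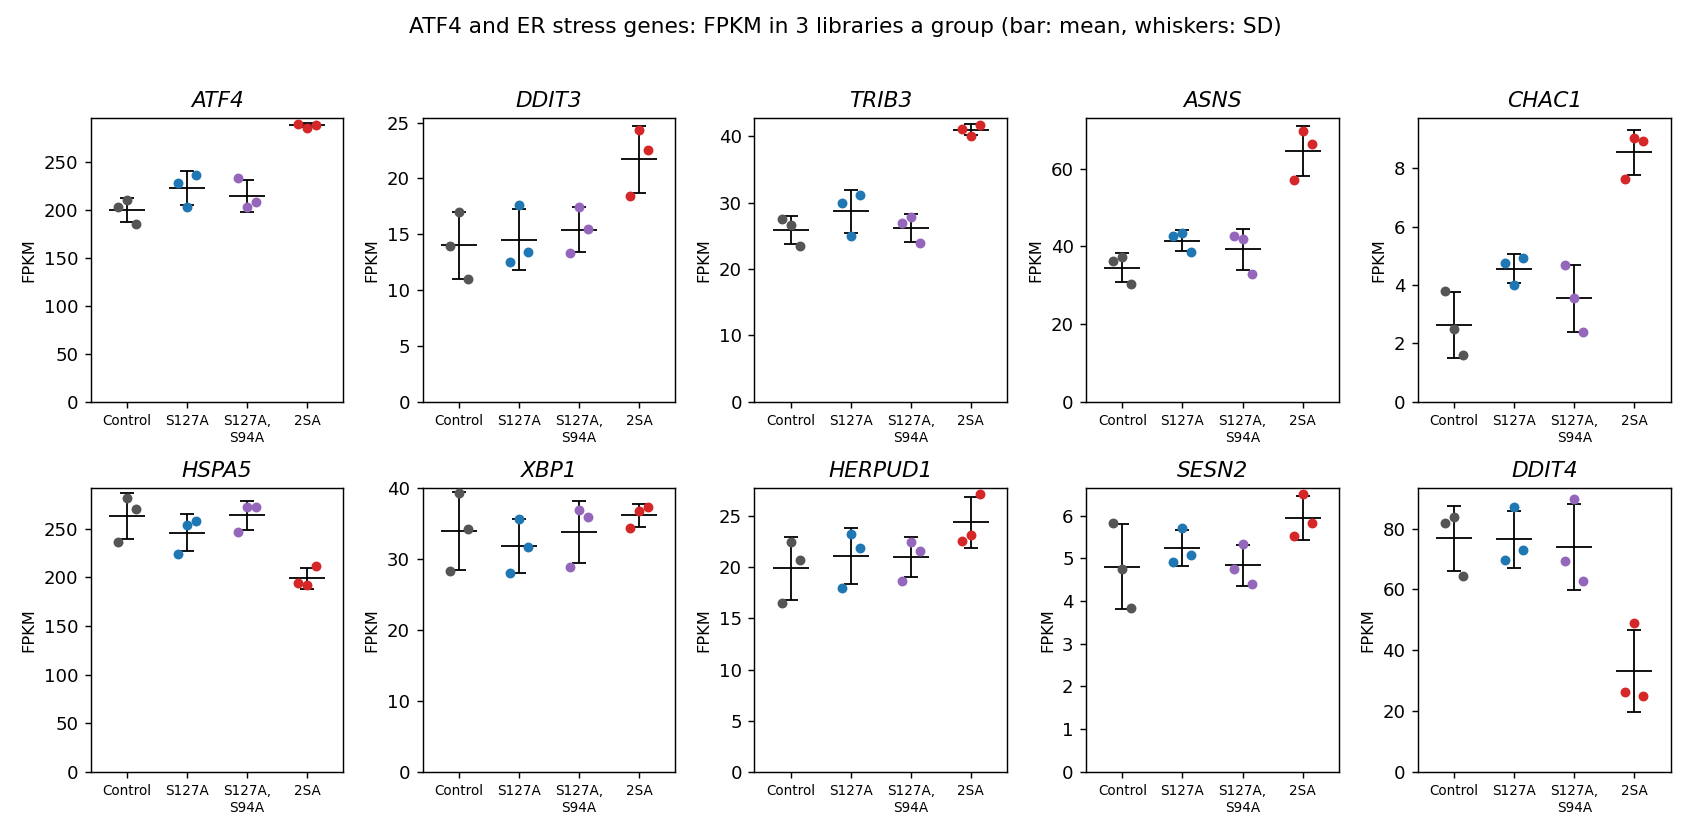
FPKM (vertical axes, each from 0) of the 10 genes in every library of the 4 groups (horizontal axes), with 1 point per library, a bar for the group mean and whiskers for the SD of 3 libraries. The YAP-2SA points stand above all others for ATF4, DDIT3, TRIB3, ASNS and CHAC1 and below all others for HSPA5 and DDIT4.

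ATF4, on chromosome 22 (39915700 to 39918688, plus strand, GRCh37), encodes the transcription factor at the centre of the response. Its level was 203, 211 and 186 FPKM in the Control libraries, 229, 203 and 237 for YAP-S127A, 234, 203 and 209 for YAP-S127A,S94A, and 290, 286 and 289 for YAP-2SA. The 3 YAP-2SA libraries lay between 286 and 290 FPKM, above every other library, while the other 3 groups overlapped. The log2 fold change of YAP-2SA over Control was 0.53 (SE 0.08, adjusted p = 2.2e-04). The same locus also lists DQ589665 and DQ601415, so that reads of these short transcripts, if any, are included.

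DDIT3 encodes CHOP, the factor linked to cell death under lasting ER stress, and lies on chromosome 12 (57910371 to 57915520, minus strand). It was measured at 13.9, 17.0 and 11.0 FPKM in Control, 12.5, 17.6 and 13.4 for YAP-S127A, 13.3, 17.4 and 15.5 for YAP-S127A,S94A and 18.4, 24.3 and 22.5 for YAP-2SA. Replicate 2 was the highest library in each of the 4 groups, and the lowest YAP-2SA library stood just above the highest of the others. The log2 fold change over Control was 0.62 (SE 0.17, adjusted p = 0.0151). This call was lost without the library labelled Control replicate 3 (0.46, adjusted p = 0.0590) and without YAP-2SA replicate 2 (0.54, adjusted p = 0.0575).

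TRIB3 encodes a pseudokinase that binds ATF4 and dampens its activity, and lies on chromosome 20 (343479 to 378203, plus strand). Its Control libraries held 27.5, 26.7 and 23.5 FPKM, those of YAP-S127A 29.9, 25.0 and 31.2, those of YAP-S127A,S94A 27.0, 27.8 and 23.9, and those of YAP-2SA 41.2, 40.0 and 41.7. YAP-2SA was again clear of the other 3 groups, whose ranges overlapped. The log2 fold change was 0.65 (SE 0.09, adjusted p = 2.0e-04).

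ASNS makes asparagine from aspartate and lies on chromosome 7 (97480989 to 97501854, minus strand). The libraries gave 36.1, 37.2 and 30.3 FPKM in Control, 42.7, 43.4 and 38.5 for YAP-S127A, 42.7, 41.8 and 33.0 for YAP-S127A,S94A, and 57.2, 69.7 and 66.4 for YAP-2SA. Both YAP-2SA and YAP-S127A lay wholly above Control, and only the first passed the test, with a log2 fold change of 0.88 (SE 0.12, adjusted p = 1.2e-04).

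CHAC1 encodes an enzyme that degrades glutathione and is among the most inducible ATF4 targets. It lies on chromosome 15 (41245160 to 41248710, plus strand) and had the lowest Control level of the 10. Its values were 3.81, 2.49 and 1.59 FPKM in Control, 4.76, 3.99 and 4.93 for YAP-S127A, 4.68, 3.56 and 2.40 for YAP-S127A,S94A and 7.65, 9.06 and 8.94 for YAP-2SA. All 3 YAP-2SA libraries exceeded every other library, and the mean of 8.55 ± 0.782 (SD, n = 3) was 3.25 times the Control mean of 2.63 ± 1.12. The log2 fold change of 1.44 (SE 0.23, adjusted p = 4.4e-04) was the largest rise among the 10 and understates the ratio, because 1 is added to a low FPKM before the logarithm.

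SESN2 (sestrin 2), a leucine sensor upstream of mTORC1 on chromosome 1 (28586029 to 28609002, plus strand), was measured at 5.83, 4.75 and 3.84 FPKM in Control, 4.92, 5.72 and 5.09 for YAP-S127A, 4.76, 5.34 and 4.40 for YAP-S127A,S94A and 5.52, 6.51 and 5.84 for YAP-2SA. The YAP-2SA range overlapped those of Control and YAP-S127A. The log2 difference of 0.27 between YAP-2SA and Control had a 95% confidence interval from 0.00 to 0.54 and did not pass (adjusted p = 0.0995), but passed without Control replicate 1 (0.40, adjusted p = 0.0187).

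DDIT4 (REDD1) is induced by ATF4, hypoxia and glucocorticoids and restrains mTORC1, and lies on chromosome 10 (74033678 to 74035794, plus strand). It moved the other way. Control libraries held 81.9, 84.0 and 64.6 FPKM, YAP-S127A libraries 69.6, 87.3 and 72.9, YAP-S127A,S94A libraries 69.4, 89.8 and 62.8, and YAP-2SA libraries 26.1, 48.9 and 24.9. Replicate 2 was the highest library of each group, and in YAP-2SA it was well above the other 2, yet still below all 9 libraries of the other groups. The log2 fold change over Control was -1.24 (SE 0.24, adjusted p = 0.00161), and the Control mean was 2.31 times the YAP-2SA mean.

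HSPA5, the ER member of the HSP70 family, holds the 3 sensors inactive until unfolded proteins draw it away, and lies on chromosome 9 (127997132 to 128003661, minus strand). Its libraries held 236, 282 and 270 FPKM in Control, 224, 254 and 258 for YAP-S127A, 247, 272 and 273 for YAP-S127A,S94A and 194, 192 and 212 for YAP-2SA. The YAP-2SA libraries were the lowest 3 of the 12. The log2 fold change was -0.39 (SE 0.08, adjusted p = 0.00302).

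XBP1, on chromosome 22 (29190543 to 29196585, minus strand), stood at 28.4, 39.3 and 34.3 FPKM in Control, 28.1, 35.7 and 31.7 for YAP-S127A, 28.9, 37.0 and 35.9 for YAP-S127A,S94A and 34.4, 36.8 and 37.4 for YAP-2SA. All 4 groups overlapped. The log2 difference between YAP-2SA and Control was 0.10, with an interval from -0.19 to 0.39 (adjusted p = 0.571). The locus value sums the spliced and unspliced forms.

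HERPUD1, an ER membrane protein of the degradation machinery on chromosome 16 (56966054 to 56978776, plus strand), had 16.5, 22.5 and 20.7 FPKM in Control, 18.0, 23.3 and 21.9 for YAP-S127A, 18.7, 22.5 and 21.6 for YAP-S127A,S94A and 22.6, 23.2 and 27.2 for YAP-2SA. The YAP-2SA libraries all stood above the Control libraries, by a margin far smaller than the spread within either group. The log2 difference of 0.29 did not pass (adjusted p = 0.102). HSPA5, XBP1 and HERPUD1 shared a pattern among the libraries of a group, since replicate 1 was the lowest of the 3 for each of these genes in Control, YAP-S127A and YAP-S127A,S94A.

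**Figure D2:**
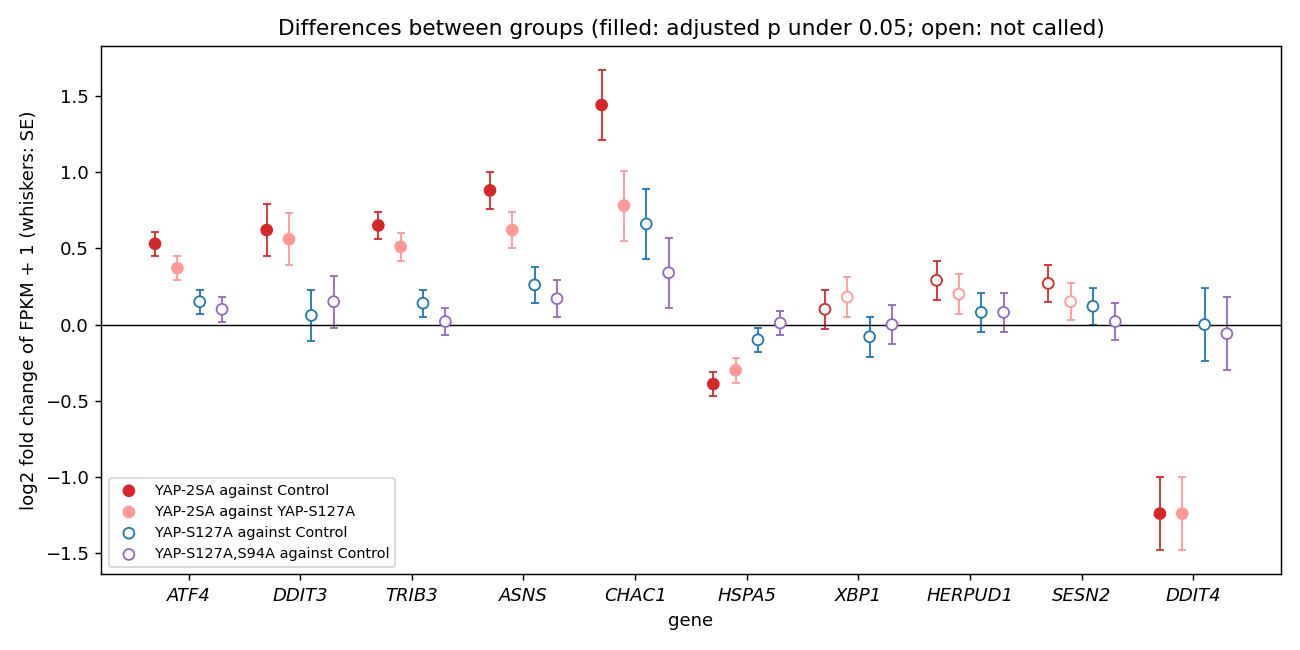
Log2 fold change of FPKM + 1 (vertical axis, whiskers SE) of each of the 10 genes (horizontal axis) in 4 comparisons between groups of 3 libraries, filled where the adjusted p was under 0.05. Filled points are in the comparisons of YAP-2SA with Control and with YAP-S127A, 7 genes in each, and the points of YAP-S127A and YAP-S127A,S94A against Control are open.

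The order of the genes by level differed between YAP-2SA and the other groups. FPKM is per length, so that levels of genes can be set side by side. In Control the order of the means was HSPA5 (263 ± 23.8 FPKM), ATF4 (200 ± 12.7), DDIT4 (76.8 ± 10.6), ASNS (34.5 ± 3.72), XBP1 (34.0 ± 5.45), TRIB3 (25.9 ± 2.13), HERPUD1 (19.9 ± 3.08), DDIT3 (14.0 ± 3.02), SESN2 (4.81 ± 0.995) and CHAC1 (2.63 ± 1.12; SD, n = 3 for each). ASNS and XBP1 did not differ beyond their spread. The ranges of HERPUD1 and DDIT3 overlapped, although HERPUD1 was the higher within each Control library. In YAP-2SA ATF4 (289 ± 1.93) stood above HSPA5 (199 ± 10.6) in every library, and ASNS (64.5 ± 6.46) and TRIB3 (41.0 ± 0.840) stood above DDIT4 (33.3 ± 13.5) on average, with 1 DDIT4 library above the TRIB3 values. CHAC1 (8.55 ± 0.782) was above SESN2 (5.95 ± 0.505) in every YAP-2SA library. The means of the other 2 groups kept the whole Control order, from HSPA5 to CHAC1.

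YAP-2SA was also compared directly with YAP-S127A, which lacks only the S381A mutation of YAP-2SA and shares no Control library. The same genes were called as against Control, with 5 of 10 higher and 2 lower. In this comparison 18.3% of all loci were called higher and 14.5% lower, and the median log2 fold change was 0.29 for the 10 genes and 0.02 over all loci. ATF4 rose by 0.37 (SE 0.08, adjusted p = 0.00335), TRIB3 by 0.51 (SE 0.09, adjusted p = 0.00164) and ASNS by 0.62 (SE 0.12, adjusted p = 0.00210) on the log2 scale. DDIT4 fell by 1.24 (SE 0.24, adjusted p = 0.00237), a change as large as that against Control. The calls of these 4 genes held with each library left out in turn.
DDIT3 (0.56, adjusted p = 0.0311), CHAC1 (0.78, adjusted p = 0.0226) and HSPA5 (-0.30, adjusted p = 0.0188) passed by less. DDIT3 lost its call without YAP-S127A replicate 1 or 3 or YAP-2SA replicate 2 or 3 (adjusted p = 0.0852 to 0.105), CHAC1 without YAP-S127A replicate 2 or YAP-2SA replicate 2 or 3 (adjusted p = 0.0670 to 0.0729), and HSPA5 without YAP-S127A replicate 2 or 3 or YAP-2SA replicate 1 or 2 (adjusted p = 0.0595 to 0.0648). XBP1, HERPUD1 and SESN2 differed by 0.18, 0.20 and 0.15 and were not called, with intervals from -0.10 to 0.47, from -0.08 to 0.49 and from -0.12 to 0.43.

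In YAP-S127A cells no gene of the 10 passed the limma test against Control, where 4.56% of loci were called higher and 1.75% lower. At an unadjusted p under 0.05, 2 were higher and 0 lower. CHAC1 averaged 4.56 ± 0.502 FPKM against 2.63 ± 1.12, a log2 difference of 0.66 (interval 0.16 to 1.16, adjusted p = 0.131), and its groups did not overlap. Without Control replicate 1 it passed (0.88, adjusted p = 0.0397). ASNS averaged 41.5 ± 2.67 against 34.5 ± 3.72 FPKM, a difference of 0.26 (interval 0.01 to 0.52, adjusted p = 0.244), and its groups did not overlap either. ATF4 differed by 0.15 (interval -0.01 to 0.32), TRIB3 by 0.14 (interval -0.06 to 0.34) and HSPA5 by -0.10 (interval -0.28 to 0.09). For DDIT4 the difference was -0.00, with an interval from -0.53 to 0.52, and its libraries scattered widely in every group.

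With the TEAD-binding residue mutated as well, 0 of the 10 genes were called by limma against Control and 0 had an unadjusted p under 0.05. Calls were rare in this comparison, at 0.0864% of loci higher and 0.0930% lower. The differences of the 10 genes ran from -0.06 for DDIT4 to 0.34 for CHAC1, and their median was 0.05. The library labelled Control replicate 3 had YAP1 at 172 and CTGF at 12.7 FPKM. In the YAP-S127A,S94A libraries they ran from 149 to 162 and from 9.94 to 12.8. Whether its label is right was not tested. Without it DDIT3, TRIB3 and SESN2 differed by -0.00, -0.05 and -0.11, and none of the 10 was called. The interval for CHAC1, from -0.16 to 0.84, still includes the difference seen in YAP-S127A. YAP-S127A against YAP-S127A,S94A gave 0 calls by limma and 0 at an unadjusted p under 0.05 among the 10, where 6.36% of loci were called higher and 4.31% lower. CHAC1 differed most, by 0.32 (interval -0.18 to 0.82), and ATF4 by 0.05 (interval -0.12 to 0.22).

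Other genes of the pathway were counted from lists, none of which holds one of the 10. Among 29 tested ATF4 targets of amino acid metabolism, transport and stress, 23 were higher in YAP-2SA than in Control and 3 were lower. Of all tested loci 22.9% were called higher and 19.5% lower in this comparison. The median log2 fold change of the 29 was 0.77, beside 0.01 over all loci. Without the library labelled Control replicate 3 the counts among the 29 were 21 and 2. Apart from the stress protein NUPR1, the largest rises were those of the secreted factor GDF15 (2.12 ± 0.610 to 73.5 ± 24.8 FPKM; log2 fold change 4.54, adjusted p = 1.7e-07) and the glycoprotein STC2 (2.10 ± 0.147 to 19.7 ± 2.38; 2.73, adjusted p = 1.2e-08). NUPR1 passed the filter only through YAP-2SA and YAP-S127A libraries, so its levels are given as a description. It averaged 0.216 ± 0.188 FPKM in Control and 9.80 ± 1.04 in YAP-2SA. JDP2 averaged 0.565 FPKM in Control and 0.480 in YAP-S127A,S94A, against 8.20 in YAP-2SA and 2.51 in YAP-S127A. Both genes are counted among the 23, and these 2 calls may not be independent of the filter. The fallers were KLHL24 (-0.87, adjusted p = 0.00151), the cystine transporter SLC7A11 (-0.75, adjusted p = 9.5e-04) and the neutral amino acid transporter SLC1A4 (-0.42, adjusted p = 0.0334). Of 13 genes for cytosolic tRNA synthetases and the tRNA exporter XPOT, 10 were higher and 1 was lower, with a median of 0.41. The shares of all loci were again 22.9% higher and 19.5% lower. SARS, NARS and YARS rose most, by 0.60, 0.59 and 0.55 (adjusted p = 2.8e-06, 2.1e-05 and 1.0e-04), and the tryptophan enzyme WARS fell by 0.38 (adjusted p = 1.0e-04).

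**Figure D3:**
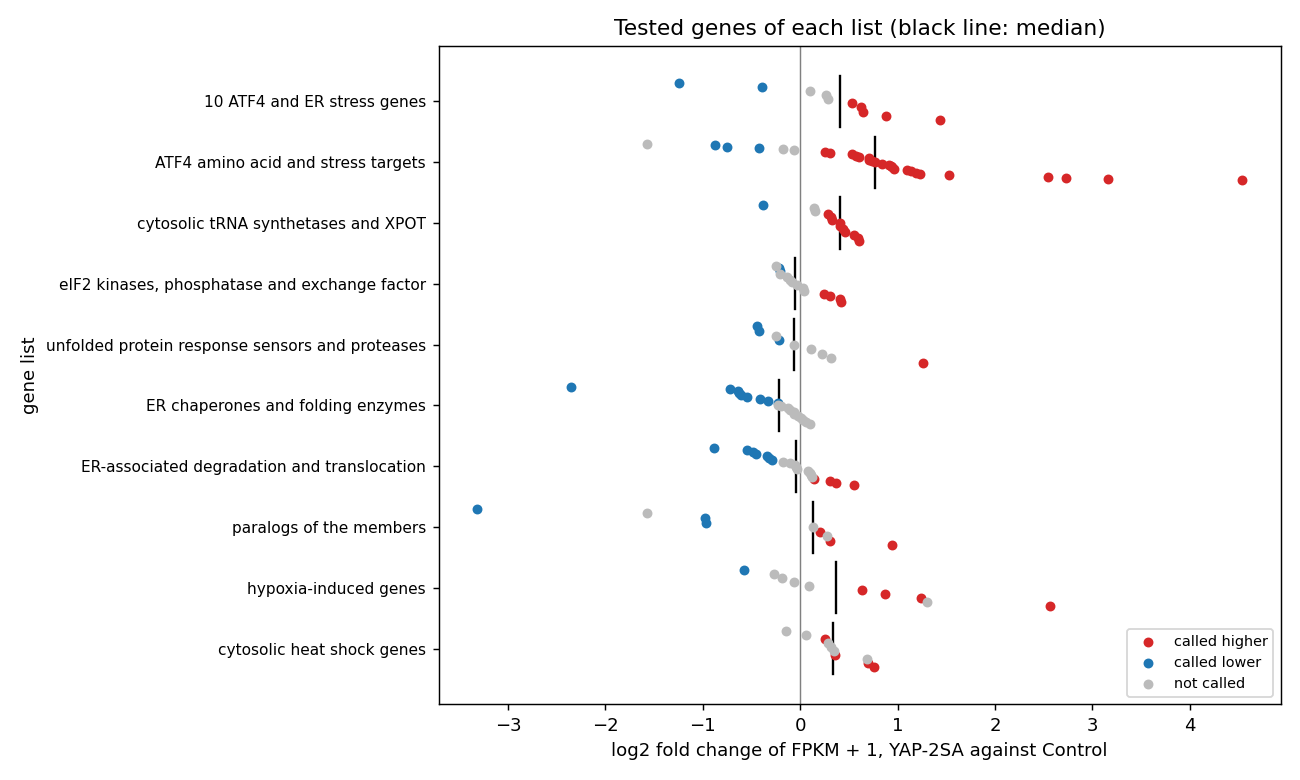
Log2 fold change of FPKM + 1 between YAP-2SA and Control (horizontal axis) of every tested gene of each list (vertical axis), red where called higher, blue where called lower and grey where not called, with a black line at the list's median. The ATF4 targets (median 0.77) lie mostly to the right of 0 and the ER chaperones (median -0.21) to the left.

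Among ER chaperones and folding enzymes, the group to which HSPA5 belongs, 0 of 20 were called higher and 9 lower in YAP-2SA against Control. Of all loci 22.9% were called higher and 19.5% lower. The median of the 20 was -0.21. At an unadjusted p under 0.05 limma gave 0 higher and 11 lower, and leaving out 1 library at a time gave 8 to 10 lower, with 8 without the library labelled Control replicate 3. ERO1LB, an ER oxidase, fell by 2.35 (23.2 ± 0.209 to 3.73 ± 0.115 FPKM, adjusted p = 2.1e-08), DNAJC3, an HSPA5 cochaperone that also inhibits eIF2 kinases, by 0.72 (adjusted p = 2.2e-04) and CRELD2, an ER-stress-induced protein, by 0.64 (adjusted p = 3.9e-05). Of the 19 of these 20 genes with a RefSeq window, 7 held the ERSE letters that HSPA5 and XBP1 hold, and 2 held the ERSE-II letters. Of all genes with a window, 0.0916% and 0.0659% did. Called lower were 2 of the 7 and 1 of the 2, beside 9 of the 20 and 19.5% of all loci. The 2 of 7 is near the share of all loci. Against YAP-S127A, 8 of the 20 were lower and 0 were higher, also at an unadjusted p under 0.05, beside 14.5% of all loci lower and 18.3% higher. HSP90B1, whose locus also lists MIR3652, is among the 8 (-1.33, SE 0.41). It averaged 1326 FPKM in YAP-S127A, 519 in Control and 462 in YAP-2SA, and was not called in YAP-2SA against Control (-0.20). Of genes of ER-associated degradation and translocation, 4 of 20 were higher (SSR3 0.55, EDEM2 0.37 and KDELR3 0.31 most) and 7 were lower (EDEM3 -0.88, EDEM1 -0.55 and SEL1L -0.48 most), and a median of -0.05. Over all loci 22.9% were higher and 19.5% lower, so the number higher is near the background. The number higher was 3 without the library labelled Control replicate 3 and 2 without YAP-2SA replicate 3, and the EDEM2 locus also lists EIF6. A further list had 9 tested genes, for sensors, related membrane factors, the proteases that cut them and the adaptor TRAF2. ERN1, which encodes IRE1, was also listed but did not pass the filter on low values and was not tested. CREB3L2 (-0.44), MBTPS2 (-0.42) and MBTPS1 (-0.22), the last 2 of which release ATF6, were called lower, beside 19.5% of all loci. The number lower was 2 without the library labelled Control replicate 3. The 1 gene called higher, the ER-anchored factor CREB3L1, passed the filter only through its YAP-2SA libraries, so its levels are given as a description, at 0.111 ± 0.0630 FPKM in Control, 0.703 ± 0.134 in YAP-S127A, 0.192 ± 0.0637 in YAP-S127A,S94A and 1.67 ± 0.351 in YAP-2SA. Leaving out 1 library at a time, the number higher ran from 0 to 3, beside 22.9% of all loci in the full fit. It was 2 without YAP-S127A replicate 3 and 3 without YAP-S127A replicate 1. EIF2AK3, which encodes PERK, was not called (-0.25, adjusted p = 0.0772).

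Of 14 genes of the eIF2 step, 4 were higher and 2 lower, with a median of -0.06, which is near the background of 22.9% higher and 19.5% lower over all loci. EIF2AK2, the kinase that senses double-stranded RNA, rose by 0.42 (adjusted p = 0.0279), the subunit gene EIF2S2 by 0.41 (adjusted p = 3.4e-04) and the haem-regulated kinase EIF2AK1 by 0.31 (adjusted p = 0.00607), and the exchange factor subunits EIF2B2 and EIF2B5 fell by 0.22 and 0.21 (adjusted p = 0.0473 and 0.0362). The rising count was 2 without the library labelled Control replicate 3, without YAP-2SA replicate 2 or without YAP-2SA replicate 3, and the falling count was 0 or 1 without other libraries. PPP1R15A (GADD34), the stress-induced phosphatase subunit that reverses eIF2 phosphorylation, belongs to the list of ATF4 targets and rose from 25.5 to 50.7 FPKM (0.96, adjusted p = 5.5e-04).

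Of 9 relatives of the 10 genes, 3 were higher and 3 lower, beside 22.9% and 19.5% of all loci, with a median of 0.13. The number higher was 2 without the library labelled Control replicate 3 and 1 without YAP-2SA replicate 1, and CEBPG and CEBPB are counted among the ATF4 targets as well. CEBPG, a dimer partner of ATF4, rose by 0.94 (adjusted p = 0.00293), CEBPB by 0.31 (adjusted p = 0.0423) and HERPUD2 by 0.20 (adjusted p = 0.0157). TRIB2, the relative of TRIB3, fell from 50.8 ± 3.43 to 4.19 ± 0.261 FPKM (-3.32, adjusted p = 1.3e-09), TRIB1 by 0.98 (adjusted p = 1.0e-04) and SESN3, the relative of SESN2, by 0.97 (adjusted p = 0.00151). TRIB3 stood below TRIB2 in Control (25.9 against 50.8 FPKM) and above it in YAP-2SA (41.0 against 4.19). The ATF5 locus also lists a microRNA and scattered widely between libraries (-1.57, SE 1.54), so no direction is given for it.

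In YAP-S127A, where none of the 10 passed, 10 of the 29 other ATF4 targets were called higher than in Control and 0 lower (0 also at an unadjusted p under 0.05, by limma), with a median of 0.25, where 4.56% of all loci were called higher and 1.75% lower. GDF15 averaged 13.2 ± 2.72 FPKM (2.19) and STC2 5.68 ± 0.0892 (1.11). NUPR1, given as a description, averaged 2.11 ± 0.453. NUPR1, which passed the filter only through YAP-2SA and YAP-S127A libraries, and JDP2, low outside these groups, are counted among the 10 and among the 12 below. Their calls may not be independent of the filter. The count of 10 became 6 without the library labelled Control replicate 3. Against YAP-S127A,S94A, 12 of the 29 were higher in YAP-S127A, beside 6.36% of all loci, and 7 without YAP-S127A,S94A replicate 3. In YAP-S127A,S94A against Control limma called 0 of the 29, with 1 higher and 0 lower at an unadjusted p under 0.05. The medians per library, as log2 differences from the Control mean, were 0.82, 0.76 and 0.80 in YAP-2SA, 0.31, 0.20 and 0.38 in YAP-S127A and -0.02, 0.01 and -0.07 in YAP-S127A,S94A, beside 0.03, 0.02 and -0.08 in Control. For the ER chaperones they were -0.27, -0.30 and -0.15 in YAP-2SA, -0.17, -0.02 and -0.06 for YAP-S127A, -0.08, 0.05 and 0.01 for YAP-S127A,S94A and -0.07, 0.05 and 0.02 in Control.

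**Figure D4:**
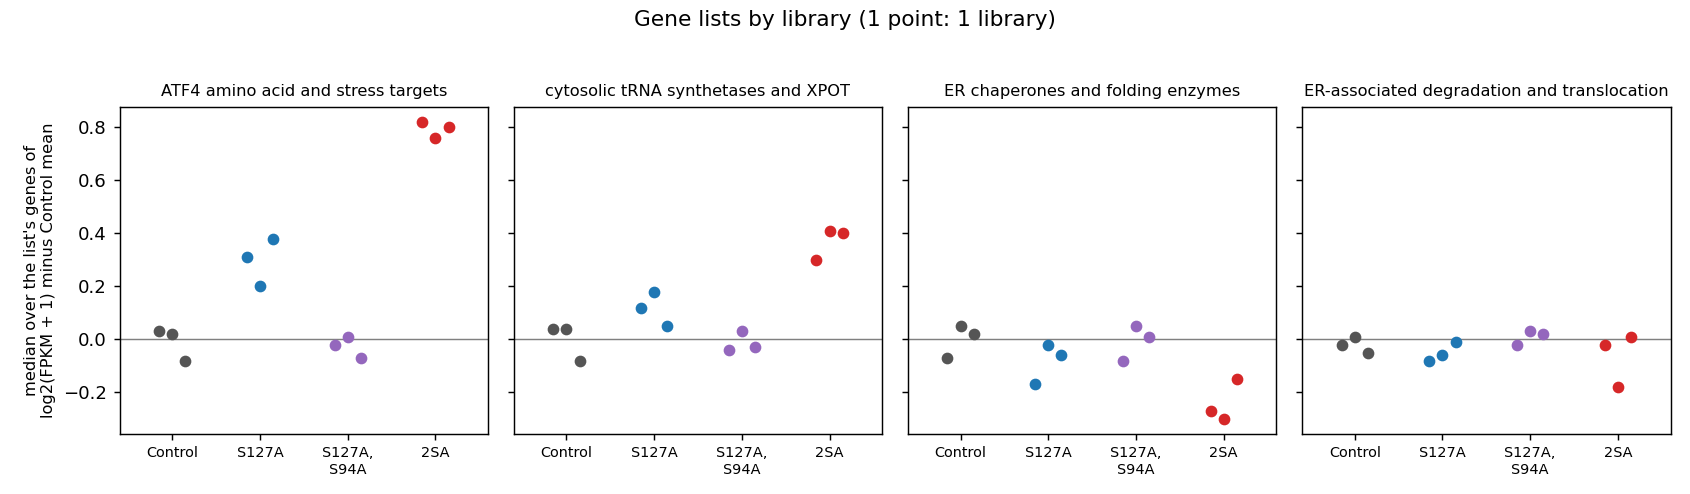
Median over a list's genes of log2(FPKM + 1) minus the Control mean (vertical axis) in each of the 12 libraries (points, by group on the horizontal axis) for 4 lists. The ATF4 targets stand at 0.76 to 0.82 in YAP-2SA and 0.20 to 0.38 in YAP-S127A, and the ER chaperones at -0.30 to -0.15 in YAP-2SA.

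The patterns most like those of ATF4, DDIT3 and HSPA5 were sought among 13489 loci with a single symbol, by Pearson correlation of log2(FPKM + 1) over the 12 libraries. The 12 libraries fall into 4 groups, and differences between groups enter these values. For ATF4 the 5 nearest were TMEM160 (0.982), DCTD (0.977), TUBA1C (0.976), MAD2L2 (0.975) and TUBA1A (0.971). For DDIT3 they were CEP78 (0.968), ERLIN1 (0.968), ADAM9 (0.94), IL11 (0.939) and RNF115 (0.933). For HSPA5 they were PCDHB17 (0.982), NOMO2 (0.971), SMOC1 (0.971), NOMO3 (0.967) and BC128043 (0.966). None of these 15 loci was one of the 10 stress genes, although the ATF4 locus, with several symbols, was not among those searched. NOMO2 and NOMO3 are near-identical copies whose reads may be shared.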

How the data were processed

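RNA from 12 cultures of A375 cells was sequenced, 3 per group. Per the labels and the study's methods, the authors aligned reads to hg19 with Bowtie2 and TopHat2 2.0.4 and assembled transcripts with Cufflinks 2.0.2, and they deposited 1 table of log2(FPKM + 1) values per locus. The library preparation is not stated to keep strand, and how shared reads were divided is not given in the sources used here. From 31588 entries 3 identical ones were removed.

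Counts were not used here, so the depth is unknown and no counting interval is given. Limma 3.58.1 (R 4.3.3) was fitted with an intensity trend to the 12 libraries together, with a mean for each group and no covariate; loci were kept when 3 or more libraries reached an FPKM of 1. An exact permutation test of 3 against 3 cannot go below p = 0.1 and was not used. The fit was tested on simulated data. The 10 genes, the lists and the tests were chosen with earlier results of these data known. Named were the 10 genes, YAP1, CTGF, CYR61 and ANKRD1, the up to 3 largest rises and falls among called genes of each list in YAP-2SA, and the 5 loci most like ATF4, DDIT3 and HSPA5. EIF2AK3, PPP1R15A, ATF5, JDP2 and HSP90B1 were added after their values were seen, and TRAF2 and ERN1 are named only as members of a list. Positions are those of GENCODE lifted to GRCh37. Alternatives were the pseudocount (0.1), the filter, scaling, quantile normalization, the libraries fitted, the replicate block, the trend, stricter calls and leaving out each library. Leaving out libraries for the list counts was chosen after seeing the data. Figures were drawn with matplotlib 3.10.9.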

Additional observations from a re-analysis of the deposited data

How the results depend on the processing

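The number of the 10 genes called in YAP-2SA against Control was 7, and 2 with a ratio over 2, and leaving out 1 library gave 6 to 8. In YAP-2SA against YAP-S127A it was 7, with 1 under the ratio, 4 at an adjusted p under 0.01, 5 with no filter on low values and 4 to 7 leaving out 1 library. In YAP-S127A against Control it was 0, and 0 to 1 leaving out 1 library. With no filter, DDIT3 (adjusted p = 0.0819) and CHAC1 (adjusted p = 0.0626) lost their calls in YAP-2SA against YAP-S127A, where more loci are tested. Of the 400 fold changes of single genes under settings other than leaving out a library, 393 kept their direction and side of the threshold.

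The reversals were of differences near 0 that were not called. HSPA5 in YAP-S127A,S94A against Control was -0.03 after quantile normalization, XBP1 there was -0.00 with median-ratio scaling and -0.01 after quantile normalization, and HERPUD1 in YAP-S127A against YAP-S127A,S94A was -0.01 with median-ratio scaling. The ranges that follow are over all the alternatives, with each library left out among them. XBP1 ran from -0.02 to 0.21 in YAP-2SA against Control. In YAP-S127A against Control, DDIT3 ran from -0.09 to 0.20, XBP1 from -0.20 to 0.02, HERPUD1 from -0.04 to 0.19, SESN2 from -0.01 to 0.24 and DDIT4 from -0.12 to 0.07. In YAP-S127A,S94A against Control, DDIT3 ran from -0.00 to 0.29, TRIB3 from -0.05 to 0.08, HSPA5 from -0.06 to 0.06, XBP1 from -0.12 to 0.11, HERPUD1 from -0.04 to 0.17, SESN2 from -0.11 to 0.14 and DDIT4 from -0.21 to 0.05. In YAP-S127A against YAP-S127A,S94A, DDIT3 ran from -0.23 to 0.00, ASNS from -0.03 to 0.15, HERPUD1 from -0.07 to 0.11 and DDIT4 from -0.05 to 0.21. The cause of these moves was not tested.

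With the replicate number as a block, the count in YAP-2SA against Control was 8, since HERPUD1 passed (0.29, adjusted p = 0.0148), and the block changed no other call. The numbers were not taken to pair the samples. Deviations of same-numbered libraries correlated at -0.149 to 0.163 over 18 pairs, 2 of them over 0.1, and 5 of 12 libraries correlated best with their own number. These values are over all tested loci. Single genes did share a pattern by number. DDIT3 and DDIT4 were highest in replicate 2 of every group, and XBP1 and HERPUD1 were lowest in replicate 1 of every group. The source of this pattern was not tested. The depth is unknown, so its part in the spread of any gene was not tested.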

Other observations

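Hypoxia-induced genes and cytosolic heat shock genes, which belong to other stress responses, were counted beside the ATF4 and ER stress genes. DDIT4 is also a hypoxia-induced gene, and in the YAP-2SA group, where it fell, 4 of 10 tested hypoxia-induced genes were higher than in Control and 1 was lower, with a median log2 fold change of 0.37, beside 22.9% of all loci higher and 19.5% lower. ADM, which encodes the vasodilator adrenomedullin, rose from 8.01 ± 1.78 to 52.4 ± 8.20 FPKM (2.57, adjusted p = 5.7e-07 by limma), NDRG1 by 1.24 (adjusted p = 1.1e-06) and the glucose transporter SLC2A1 by 0.87 (adjusted p = 8.3e-05), and the histone demethylase KDM3A fell by 0.58 (adjusted p = 0.00159). ADM (0.81) and SLC2A1 (0.48) were also called higher in YAP-S127A against Control, and these 2 calls became 0 without the library labelled Control replicate 3 or YAP-S127A replicate 1 and 1 without Control replicate 2 or YAP-S127A replicate 3. Without YAP-2SA replicate 2, 2 hypoxia-induced genes were lower in YAP-2SA.

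Among 10 cytosolic heat shock genes 4 were higher in YAP-2SA and 0 lower (0 also at an unadjusted p under 0.05, by limma), with a median of 0.34, beside 22.9% of all loci higher and 19.5% lower. HSP90AA1 rose from 607 ± 52.0 to 1030 ± 139 FPKM (0.76, adjusted p = 8.7e-04), the small heat shock protein HSPB1 by 0.70 (adjusted p = 3.7e-04) and HSPH1 by 0.36 (adjusted p = 0.0345). The count was 2 without the library labelled Control replicate 3, without YAP-2SA replicate 2 or without YAP-2SA replicate 3, a share near that of all loci. The loci of HSPA1A and HSPA1B share near-identical copies, and neither was called.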
